A study of Rattus norvegicus with 6 samples.

Results

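The genes described here mark endothelial cells, the cells that line blood vessels. They are Pecam1, Cdh5, Kdr, Eng, Plvap, Flt1, Tek, Tie1, Cldn5 and Vwf, and were chosen by symbol. All 10 were found among the 22864 genes of the deposited table, and all 10 passed the filter on low counts that left 15531 genes for testing.

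Bulk RNA sequencing was run on ipsilateral L4 to L6 dorsal root ganglia (DRG), where the sensory neurons of the hind limb have their cell bodies. The animals were wild-type rats, male per the treatment text, and neither strain nor age is named in the labels. CPIP stands for chronic post-ischaemia pain: under pentobarbital anaesthesia, an O-ring sat close to the ankle of 1 hind limb for 3 h. Sham rats had the same anaesthesia and no ring. CPIP+ETA rats received intrathecal etanercept, a fusion protein that binds tumour necrosis factor, while Sham+Veh and CPIP+Veh rats received vehicle. Dosing was daily, starting once 2 days had passed, and tissue was collected on day 7. Each of the 3 groups has 2 libraries, numbered 1 and 2. Whether these came from separate animals or from pools is not stated, so p-values measure only the spread between these libraries, which may be technical.

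Endothelial cells form the tube of every vessel and the barrier between blood and tissue. Growth and survival of the vessel are controlled through receptors on these cells. Vascular endothelial growth factor (VEGF) acts through Kdr and Flt1, angiopoietins act through Tek with its partner Tie1, and bone morphogenetic proteins act through Acvrl1 with the co-receptor Eng. Pecam1, Cdh5 and Cldn5 hold neighbouring cells together, Plvap builds the diaphragms of permeable vessels, and Vwf is released and takes part in clotting. Vessels around sensory neuron cell bodies are known to be more permeable than those of the peripheral nerve.

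Library totals ran from 18284891 to 19981081 counts, and the 10 genes together took 0.0221% to 0.0270% of them. Each gene had between 121 and 937 counts per library. Counting error alone came to 9.09% at the lowest of these, Plvap in CPIP+Veh 1, and to 3.72% at the lowest count of Cldn5. On the first principal component of all genes (25.5% of the variance), CPIP+ETA 1 (25.6) and CPIP+ETA 2 (-18.1) lay far apart, and so did Sham+Veh 1 (-29.5) and Sham+Veh 2 (-4.74). Markers of the labelled tissue were abundant, with sensory neuron markers summing to between 14845 and 16657 CPM (counts scaled to a fixed library size). In a bulk sample fewer endothelial cells and less RNA per cell cannot be told apart. Levels below are CPM with TMM scaling, a correction for library composition, and are compared between libraries only, never between genes, because transcript lengths were not used.

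The first comparison, CPIP+Veh against Sham+Veh, asked what the ischaemia model did to these genes. Most of the genes stood lower in the model. Of the 10, 8 had a log2 fold change below 0 (51.0% of all genes tested did), and 6 were lower with no overlap between the groups (19.5% of all genes). The median log2 fold change was -0.26, against -0.0031 over all genes tested. Plvap, Eng, Flt1, Kdr and Pecam1, in that order of size, had unadjusted p-values under 0.05, which 2.59% of all genes reached in the lower direction. None passed edgeR's quasi-likelihood test after adjustment over 15531 genes (called at an adjusted p under 0.05, which 0.0193% of all genes reached). DESeq2 and limma-voom also called 0 of the 10 (0.315% and 0.0129% of all genes). The count at an unadjusted p under 0.05 went from 5 to 3 without Sham+Veh 1, to 1 without Sham+Veh 2, and to 2 without CPIP+Veh 1 or CPIP+Veh 2, and the median then lay between -0.32 and -0.24.

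The promoters of Eng, Kdr and Plvap, which were lower in CPIP+Veh, are shown beside that of Tie1, which was not, because many endothelial genes are controlled by ETS family transcription factors that recognise a GGAA core. Each sequence is the 250 bases before the RefSeq gene start on GRCr8, read in the direction of the gene, with every GGAA or its complement TTCC in capitals. Whether these starts are used in the ganglion is not known from these files. Eng lies at chr3:36332029-36332278 on the plus strand, Kdr at chr14:32571813-32572062 on the plus strand, Plvap at chr16:18231280-18231529 on the minus strand and Tie1 at chr5:137304982-137305231 on the minus strand.
Eng: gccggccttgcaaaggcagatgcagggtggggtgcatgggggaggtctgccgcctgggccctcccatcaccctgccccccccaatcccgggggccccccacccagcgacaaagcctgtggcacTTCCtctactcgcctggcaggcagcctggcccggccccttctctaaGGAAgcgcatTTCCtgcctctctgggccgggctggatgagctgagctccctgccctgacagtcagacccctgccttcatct
Kdr: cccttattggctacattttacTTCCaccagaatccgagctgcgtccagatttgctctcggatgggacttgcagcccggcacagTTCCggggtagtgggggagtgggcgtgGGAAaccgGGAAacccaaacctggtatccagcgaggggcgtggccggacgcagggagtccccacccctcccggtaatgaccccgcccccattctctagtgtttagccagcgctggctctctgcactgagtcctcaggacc
Plvap: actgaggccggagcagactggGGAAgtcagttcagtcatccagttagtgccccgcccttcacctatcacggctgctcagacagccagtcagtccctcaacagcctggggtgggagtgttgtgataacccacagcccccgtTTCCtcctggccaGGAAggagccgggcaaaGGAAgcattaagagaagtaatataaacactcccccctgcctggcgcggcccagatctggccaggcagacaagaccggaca
Tie1: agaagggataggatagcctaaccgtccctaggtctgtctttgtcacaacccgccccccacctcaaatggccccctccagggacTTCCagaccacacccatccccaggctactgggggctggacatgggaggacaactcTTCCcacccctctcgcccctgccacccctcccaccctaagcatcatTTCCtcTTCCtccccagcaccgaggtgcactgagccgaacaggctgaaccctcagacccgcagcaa

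Promoters of 6 of the 10 genes were matched by gene identifier, these 4 with Flt1 and Cldn5. The GGAA core was searched on both strands and was present 3 times in Eng, 4 times each in Kdr, Plvap and Tie1, 3 times in Flt1 and 0 times in Cldn5. Of 33469 rat promoters of this length 93.2% held it, with a median of 3. The longer GGAAG, which contains that core, was found in 5 of the 6 and in 63.3% of all promoters. A GC box (GGGCGG) was in 5 of the 6, against 30.5% of all promoters, but not in that of Eng. The share of G and C bases ran from 58.4% in Cldn5 to 73.2% in Flt1, against a median of 51.2% over all promoters. The motif shares were not adjusted for it. The TATA box TATAAA was in Plvap and Flt1 and in 12.9% of all promoters, and GATAA, a core recognised by GATA factors, in Plvap and in 23.5% of all promoters.

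**Figure D1:**
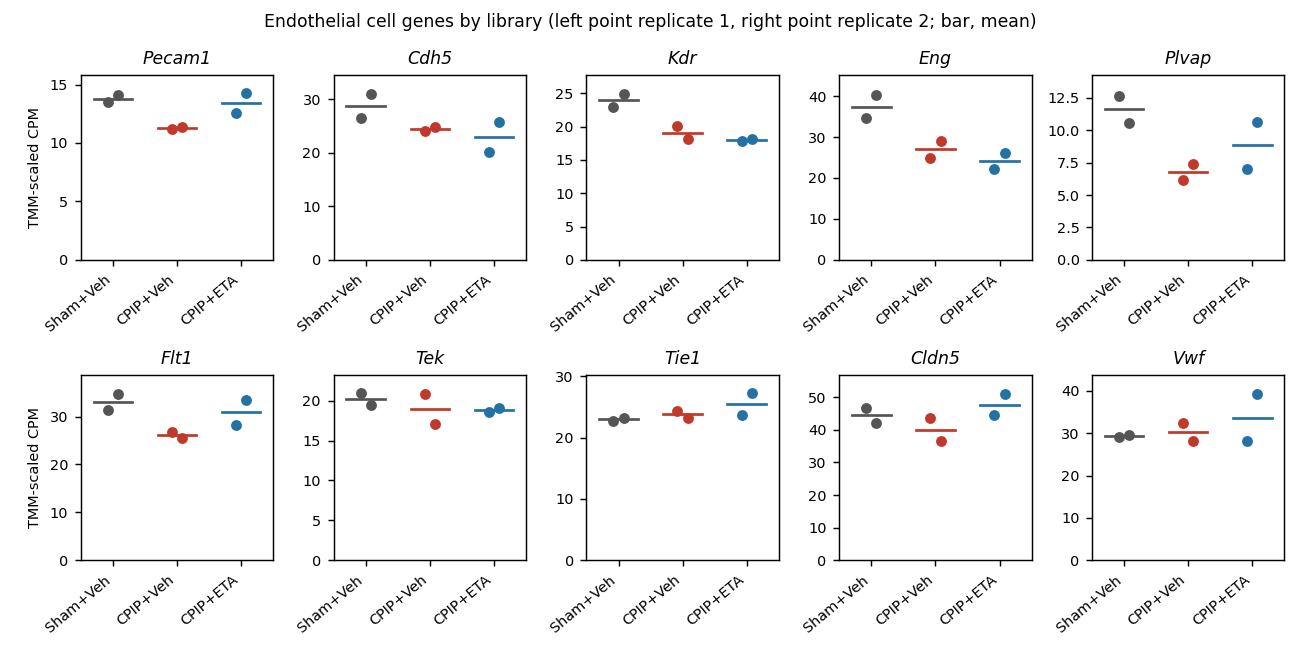
TMM-scaled CPM (y axis, from 0, with a scale of its own for each gene) of the 10 endothelial cell genes in the 2 libraries of each group, with the group mean as a bar. Eng, Kdr and Cdh5 are lower in all 4 CPIP libraries than in both sham libraries, while Tie1 and Vwf are not.

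Eng, a co-receptor for bone morphogenetic proteins and transforming growth factor beta, stood at 34.6 and 40.3 CPM in Sham+Veh 1 and 2. In CPIP+Veh it was at 24.9 and 29.2 CPM, and in CPIP+ETA at 22.3 and 26.0 CPM. Every CPIP library was below both sham libraries, and the CPIP groups overlapped each other. The sham mean was 37.4 ± 4.01 CPM, that of CPIP+Veh 27.0 ± 3.00 and that of CPIP+ETA 24.1 ± 2.66 (SD, n = 2). For CPIP+Veh against sham the log2 fold change was -0.47 (SE 0.124, 95% interval -0.77 to -0.17, edgeR adjusted p = 0.850), which is 0.722 of the sham level. It ranked 138th by p among all genes tested. Which cells of the ganglion made Eng was not tested.

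Kdr, the main signalling receptor for VEGF, was counted at 23.0 and 25.0 CPM in the sham libraries. The values were 20.0 and 18.2 CPM in CPIP+Veh, then 17.9 and 18.1 CPM in CPIP+ETA. All 4 CPIP libraries lay below both sham libraries. Against sham, CPIP+Veh had a log2 fold change of -0.33 (SE 0.0929, 95% interval -0.55 to -0.10, edgeR adjusted p = 0.938).

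Flt1, the VEGF receptor that binds the ligand tightly and also exists as a soluble decoy, stood at 31.3 and 34.7 CPM in sham. It stood at 26.7 and 25.6 CPM in CPIP+Veh, below sham without overlap, then 28.3 and 33.5 CPM in CPIP+ETA, which overlapped sham. The log2 fold change for CPIP+Veh against sham was -0.34 (SE 0.104, 95% interval -0.59 to -0.09, edgeR adjusted p = 0.938).

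Plvap, which forms the diaphragms of fenestrae and caveolae, had its lowest mean in CPIP+Veh. It stood at 12.7 and 10.6 CPM in sham, 6.13 and 7.36 CPM in CPIP+Veh, then 7.00 and 10.7 CPM in CPIP+ETA. CPIP+ETA 2 alone among the CPIP libraries reached the sham range. The mean was 11.6 ± 1.49 CPM in sham and 6.75 ± 0.875 CPM in CPIP+Veh (SD, n = 2), a ratio of 0.581 in the fit. Its log2 fold change of -0.78 (SE 0.222, 95% interval -1.31 to -0.25, edgeR adjusted p = 0.938) was the lowest of the 10.

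Pecam1, an adhesion molecule of endothelial junctions also made by platelets and some leukocytes, stood at 13.5 and 14.1 CPM in sham. The libraries of CPIP+Veh lay close together at 11.2 and 11.4 CPM, below sham, and those of CPIP+ETA at 12.5 and 14.3 CPM. The log2 fold change for CPIP+Veh was -0.29 (SE 0.105, 95% interval -0.54 to -0.04, edgeR adjusted p = 0.938).

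Cdh5, the cadherin of endothelial adherens junctions, was at 26.5 and 31.0 CPM in sham, 24.1 and 24.8 CPM in CPIP+Veh, then 20.1 and 25.7 CPM in CPIP+ETA. All 4 CPIP libraries were again below both sham libraries. Its log2 fold change in CPIP+Veh of -0.23 (SE 0.135) had an interval that included 0 (-0.55 to 0.09), and it was -0.11 without Sham+Veh 2.

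The other members overlapped between CPIP+Veh and sham. Tek, the angiopoietin receptor also called Tie2, stood at 21.0 and 19.4 CPM in sham, 20.9 and 17.1 CPM in CPIP+Veh, then 18.6 and 19.1 CPM in CPIP+ETA (log2 fold change in CPIP+Veh -0.09, SE 0.116, 95% interval -0.37 to 0.19). Tie1, the partner receptor of Tek, stood at 22.7 and 23.3 CPM in sham, 24.4 and 23.3 CPM in CPIP+Veh, then 23.6 and 27.3 CPM in CPIP+ETA (0.05, SE 0.0955, interval -0.18 to 0.28). Cldn5, the main claudin of endothelial tight junctions, stood at 46.7 and 42.2 CPM in sham, 43.5 and 36.5 CPM in CPIP+Veh, then 44.6 and 51.0 CPM in CPIP+ETA (-0.15, SE 0.112, interval -0.42 to 0.11). Vwf, the clotting factor stored in endothelial granules, stood at 29.2 and 29.5 CPM in sham, 32.5 and 28.1 CPM in CPIP+Veh, then 28.1 and 39.3 CPM in CPIP+ETA (0.05, SE 0.159, interval -0.33 to 0.43). Single libraries moved each of these values. Tek was -0.24 without CPIP+Veh 1 and turned to 0.05 without CPIP+Veh 2, and was -0.02 and -0.14 without Sham+Veh 1 and 2. Leaving out CPIP+Veh 1 or 2 gave -0.28 or -0.03 for Cldn5, and leaving out Sham+Veh 1 gave -0.07. Vwf turned to -0.06 without CPIP+Veh 1 and was 0.15 without CPIP+Veh 2, and Tie1 was 0.02 and 0.09.

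**Figure D2:**
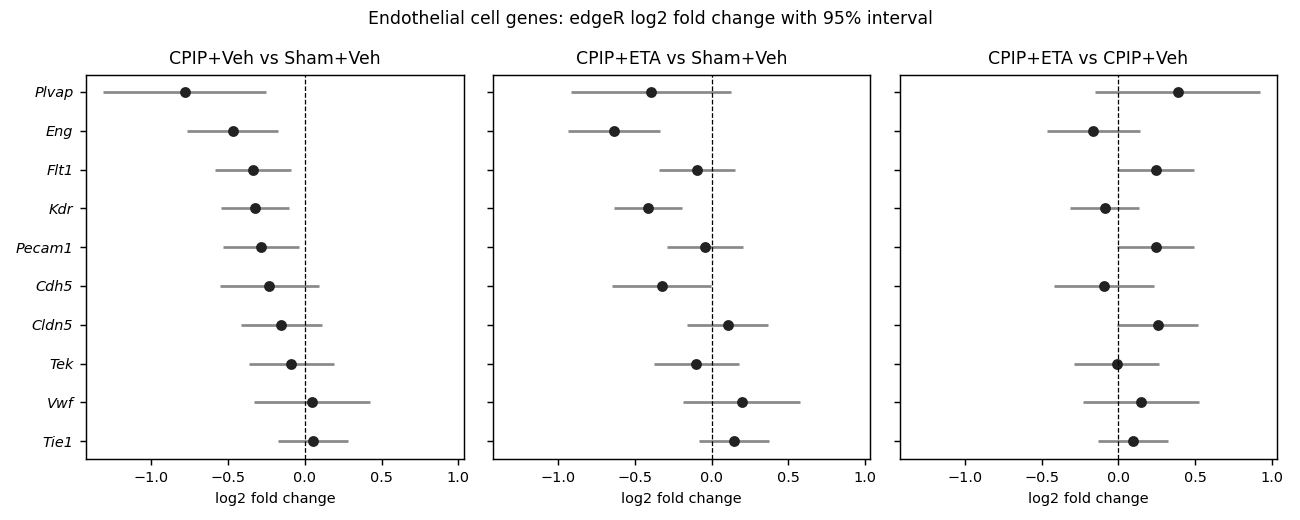
Log2 fold change (x axis) of each gene in the 3 comparisons, from edgeR with 2 libraries per group, with its 95% interval. In CPIP+Veh against Sham+Veh the intervals of Plvap, Eng, Flt1, Kdr and Pecam1 lie below 0, and in CPIP+ETA against CPIP+Veh every interval includes 0.

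Because fold changes differed among the genes, ratios between pairs of them were taken within each library, where library scaling cancels. These pairs were chosen after the values were seen, and no test was made. Eng to Tie1 counts gave ratios of 1.52 and 1.73 in sham, 1.02 and 1.25 in CPIP+Veh, then 0.942 and 0.954 in CPIP+ETA, lower in every CPIP library. Kdr to Tie1 gave 1.01 and 1.07 in sham, 0.822 and 0.781 in CPIP+Veh, then 0.757 and 0.663 in CPIP+ETA. Plvap to Cldn5 gave 0.271 and 0.250 in sham, 0.141 and 0.202 in CPIP+Veh, then 0.157 and 0.209 in CPIP+ETA. The divisors Tie1 and Cldn5 were members that overlapped between CPIP+Veh and sham. Eng to Pecam1 gave 2.566 and 2.853 in sham, 2.216 and 2.558 in CPIP+Veh, then 1.775 and 1.824 in CPIP+ETA. Vwf to Pecam1 gave 2.16 and 2.09 in sham, 2.89 and 2.47 in CPIP+Veh, then 2.24 and 2.75 in CPIP+ETA. The ratio of Kdr to Flt1, the receptors for VEGF, overlapped between sham (0.734 and 0.718) and CPIP+Veh (0.751 and 0.710) and was lower in CPIP+ETA (0.632 and 0.539). For Tek to Tie1 CPIP+Veh overlapped both other groups, while sham and CPIP+ETA were separate, at 0.921 and 0.835 in sham, 0.857 and 0.735 in CPIP+Veh, then 0.789 and 0.699 in CPIP+ETA.

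How the endothelial genes differed with etanercept within the model was read from CPIP+ETA against CPIP+Veh. Pecam1, Flt1 and Cldn5 stood higher with etanercept, with no overlap between the groups (15.7% of all genes were higher without overlap), and Kdr stood lower without overlap (16.9%). The closest libraries for Kdr were CPIP+Veh 2 at 18.16 CPM and CPIP+ETA 2 at 18.08 CPM. Of the 10 genes 4 lay below 0 (50.4% of all genes) and 6 above, and the median log2 fold change was 0.12 against -0.0016 over all genes. In edgeR 0 of the 10 passed, as did 0% of all genes, and 0 had an unadjusted p under 0.05 (5.15% of all genes). DESeq2 called 0 of the 10 (0.135% of all genes) and limma-voom 0. The comparison shares the CPIP+Veh libraries with the one against sham.

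Pecam1 had a log2 fold change of 0.24 with etanercept (SE 0.105, 95% interval -0.01 to 0.49, edgeR adjusted p = 0.938). Flt1 had nearly the same, at 0.24 (SE 0.105, 95% interval -0.01 to 0.49), and Cldn5 had 0.26 (SE 0.111, interval -0.01 to 0.52). Plvap, at 0.39 (SE 0.224, interval -0.15 to 0.92), was the furthest from 0 but overlapped. All 4 values were smaller without CPIP+ETA 2, at 0.15 for Pecam1, 0.12 for Flt1, 0.16 for Cldn5 and 0.05 for Plvap. Without CPIP+ETA 1 Plvap was at 0.66 and Flt1 at 0.36, and Cldn5 was 0.39 without CPIP+Veh 1 and 0.13 without CPIP+Veh 2. Eng (-0.16, SE 0.126), Cdh5 (-0.09, SE 0.136), Kdr (-0.09, SE 0.0939) and Tek (-0.01, SE 0.116) lay below 0, and Vwf (0.15, SE 0.158) and Tie1 (0.09, SE 0.095) above. With single libraries left out Eng ran from -0.28 (without CPIP+ETA 2) to -0.05 (without CPIP+Veh 2, and without CPIP+ETA 1), and was -0.27 without CPIP+Veh 1. Kdr was -0.01 without CPIP+Veh 1 and -0.16 without CPIP+Veh 2. Cdh5 was -0.28 without CPIP+ETA 2 and turned to 0.07 without CPIP+ETA 1. Vwf turned to -0.11 and Tie1 to -0.01 without CPIP+ETA 2, and without CPIP+ETA 1 they were 0.38 and 0.20. Vwf was 0.26 and 0.05 without CPIP+Veh 1 and 2, and Tie1 was 0.06 without CPIP+Veh 2. Tek turned to 0.14 without CPIP+Veh 1 and to 0.0066 without CPIP+ETA 1, while leaving out CPIP+Veh 2 gave -0.15 and leaving out CPIP+ETA 2 gave -0.03.

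The etanercept libraries differed from each other. CPIP+ETA 2 was higher than CPIP+ETA 1 for all 10 genes. In CPIP+ETA 1, 8 of the 10 were below both sham libraries and 1 was above, whereas in CPIP+ETA 2, 4 were below both and 4 above. The summed level of the 10 genes was 84.0% of the sham mean in CPIP+ETA 1 and 99.8% in CPIP+ETA 2, against 88.3% and 83.4% in CPIP+Veh 1 and 2. Without CPIP+ETA 2 the median for etanercept was -0.02, and without CPIP+ETA 1 it was 0.27. It was 0.19 without CPIP+Veh 1 and 0.06 without CPIP+Veh 2, so its size and direction moved with single libraries.

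**Figure D3:**
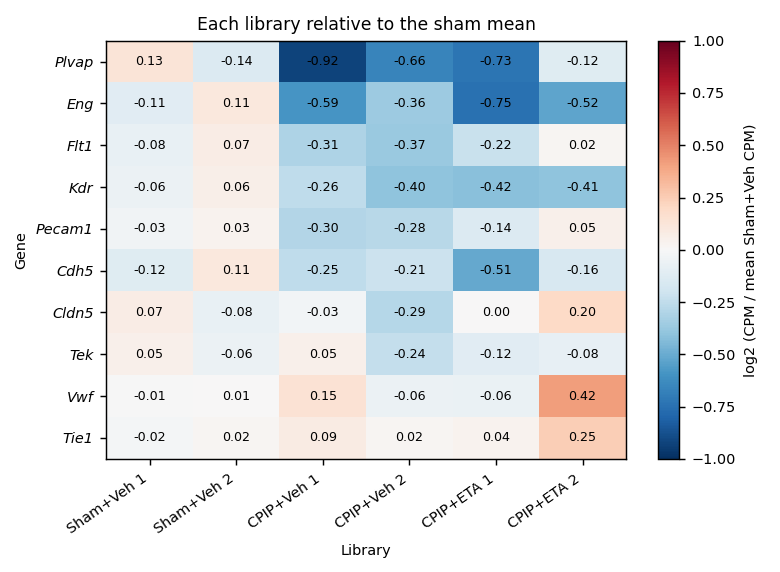
Log2 ratio of each library to the mean of the sham libraries (colour and printed value) for the 10 genes (rows), ordered by their fold change in CPIP+Veh. Eng, Kdr, Plvap and Cdh5 are below 0 in all 4 CPIP libraries, and the column of CPIP+ETA 2 holds the highest values for Vwf, Tie1, Cldn5 and Pecam1.

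CPIP+ETA was also compared with Sham+Veh, which asks how far the treated model was from sham. Eng was the furthest below, with a log2 fold change of -0.63 (SE 0.125, 95% interval -0.93 to -0.33, edgeR adjusted p = 0.486), which is 0.645 of the sham level. Kdr had -0.41 (SE 0.0934, interval -0.64 to -0.19, edgeR adjusted p = 0.531) and Cdh5 -0.33 (SE 0.135, interval -0.65 to -0.0032). These 3 had an unadjusted p under 0.05, as 3.73% of all genes did in the lower direction. Cdh5 was -0.51 without CPIP+ETA 2, -0.15 without CPIP+ETA 1 and -0.21 without Sham+Veh 2. This count was 2 without Sham+Veh 2, CPIP+Veh 1, CPIP+Veh 2 or CPIP+ETA 1, and was 4 without CPIP+ETA 2. With Tek (-0.10) they were lower without overlap, 4 of the 10 where 18.5% of all genes were, and Tie1 was higher without overlap (0.15; 17.2% of all genes). In edgeR 0 of the 10 passed (0.0193% of all genes did) and in limma-voom 0 (0.00644%). Of the 10, 7 lay below 0 (50.7% of all genes). DESeq2 called Eng alone (log2 fold change -0.63, adjusted p = 0.0494), while over all alternatives its adjusted p ran from 0.0494 to 0.983. DESeq2 called 0.322% of all genes here. Tie1 was 0.25 without CPIP+ETA 1 and 0.04 without CPIP+ETA 2, and leaving out Sham+Veh 1 or 2 gave -0.04 or -0.15 for Tek.

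The remaining members had intervals that included 0 in this comparison. They were Plvap (-0.40, SE 0.219), Flt1 (-0.10, SE 0.104), Pecam1 (-0.04, SE 0.104), Cldn5 (0.10, SE 0.111) and Vwf (0.20, SE 0.159). Plvap was -0.73 without CPIP+ETA 2, -0.12 without CPIP+ETA 1 and -0.25 without Sham+Veh 1. Without CPIP+ETA 1 Flt1 turned to 0.03 and Pecam1 to 0.06, and Cldn5 was 0.21 and Vwf 0.43. Without CPIP+ETA 2 Flt1 was -0.22, Pecam1 -0.13 and Cldn5 0.0078, and Vwf turned to -0.06. Without Sham+Veh 1 Flt1 was -0.16, Pecam1 -0.07 and Cldn5 0.19, and without Sham+Veh 2 these were -0.015, -0.0061 and 0.04. The median over the 10 was -0.10, against -0.0020 over all genes, and was -0.18 without CPIP+ETA 2 and -0.02 without CPIP+ETA 1.

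With both CPIP groups averaged against sham, a comparison added after the values were seen, Eng had a log2 fold change of -0.55 (SE 0.106, 95% interval -0.81 to -0.30, edgeR adjusted p = 0.587). Kdr had -0.37 (SE 0.0797, interval -0.56 to -0.18, edgeR adjusted p = 0.667). Plvap, Cdh5 and Flt1 had -0.59, -0.28 and -0.22, and with Eng and Kdr made 5 of the 10 lower at an unadjusted p under 0.05 (3.50% of all genes). Eng, Kdr and Cdh5 were lower in 4 of 4 CPIP libraries than in either sham library, where 8.38% of all genes were. Of the 10, 8 lay below 0 (51.1% of all genes). Again edgeR (0.0193% of all genes) and limma-voom (0.0129%) called 0 of the 10, and DESeq2 (0.258%) called Eng (adjusted p = 0.0496).

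The order of the group means followed several patterns. Kdr, Eng, Cdh5 and Tek ran from sham through CPIP+Veh down to CPIP+ETA, and only for Kdr were all neighbouring groups separate. The CPIP groups were barely so for Kdr, with 18.16 CPM in CPIP+Veh 2 and 18.08 CPM in CPIP+ETA 2. Its counting error was 5.49% at its lowest count. For Eng and Cdh5 sham was separate from CPIP+Veh, while the CPIP groups overlapped. Pecam1, Flt1 and Plvap were highest in sham and lowest in CPIP+Veh, with CPIP+ETA between them and overlapping sham. Tie1 and Vwf had their highest mean in CPIP+ETA and their lowest in sham, and Cldn5 its highest in CPIP+ETA and lowest in CPIP+Veh. Vwf was the gene whose highest and lowest groups overlapped.

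The wider endothelial pathways were read from 8 lists with 109 genes, of which 102 were tested. The lists go by pathway or function, and which cells of the ganglion made these transcripts was not tested. In CPIP+Veh against sham 75 of the 102 lay below 0 and 38 were lower without overlap, against 51.0% and 19.5% of all genes. At an unadjusted p under 0.05 there were 4 lower and 0 higher (2.59% and 2.34% of all genes), and edgeR, DESeq2 and limma-voom each called 0. Their median log2 fold change was -0.10. With etanercept against CPIP+Veh 50 lay above 0 and 52 below, with 6 higher and 4 lower at an unadjusted p under 0.05 (2.42% and 2.73% of all genes), and edgeR called 0, DESeq2 0 and limma-voom 0. In CPIP+ETA against sham 64 lay below 0 and 38 above, with 13 lower and 1 higher at an unadjusted p under 0.05 (3.73% and 2.64% of all genes). Without overlap 32 were lower and 12 higher (18.5% and 17.2% of all genes). There edgeR and limma-voom called 0, and DESeq2 called 2, Thbd and Cav1, both lower.

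**Figure D4:**
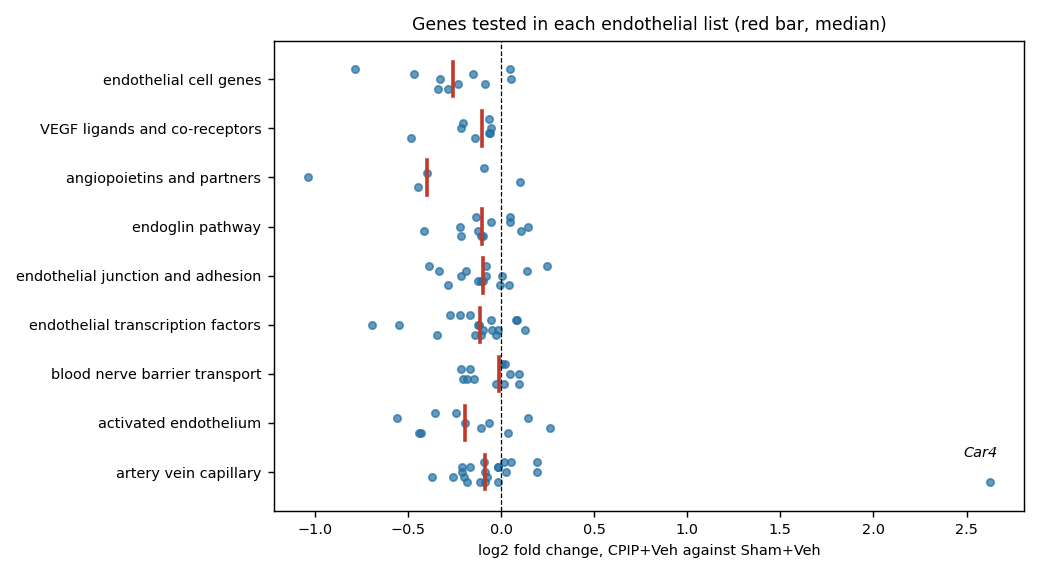
Log2 fold change in CPIP+Veh against Sham+Veh (x axis) of each tested gene in the endothelial cell genes and the 8 further lists (y axis), with the median as a red bar. Medians lie between -0.40 for the angiopoietin list and -0.01 for the transport list, and Car4 stands alone at 2.63.

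Among the ligands and co-receptors of VEGF, 8 of 8 tested genes lay below 0 in CPIP+Veh, with a median of -0.11. The semaphorin and VEGF co-receptor Nrp2 stood at 107.8 and 102.2 CPM in sham and at 92.2 and 88.8 CPM in CPIP+Veh (log2 fold change -0.21, SE 0.0788, edgeR adjusted p = 0.938). The ligand Vegfa stood at 79.7 and 89.5 CPM in sham and 79.7 and 73.4 CPM in CPIP+Veh, and these overlapped (-0.14, SE 0.0761). It was at 82.1 and 84.7 CPM in CPIP+ETA.

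Of the angiopoietin list 4 of 5 tested genes lay below 0. Angpt1, the activating ligand of Tek made by cells around the vessel, stood at 7.96 and 6.24 CPM in sham, 5.06 and 5.35 CPM in CPIP+Veh, then 2.57 and 5.72 CPM in CPIP+ETA (log2 fold change in CPIP+Veh -0.45, SE 0.341). Angptl1, a secreted relative of the angiopoietins, was counted 30 and 54 times in sham, 20 and 24 times in CPIP+Veh, then 13 and 17 times in CPIP+ETA (-1.04, SE 0.398, edgeR adjusted p = 0.938). Both were lower than sham in all 4 CPIP libraries.

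The partners of Eng showed small differences. In the endoglin list 8 of 12 tested genes lay below 0, and 7 were lower without overlap, against 51.0% and 19.5% of all genes. Acvrl1, the type I receptor that signals with Eng, stood at 14.2 and 15.1 CPM in sham, 12.4 and 12.9 CPM in CPIP+Veh, then 11.2 and 12.7 CPM in CPIP+ETA (log2 fold change in CPIP+Veh -0.22, SE 0.105, edgeR adjusted p = 0.938). Smad6, an inhibitor of that signal, had -0.42 (SE 0.253). The circulating ligands Gdf2 and Bmp10 were not tested, with 0 and 1 counts over the 6 libraries.

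Transcription factors of endothelial identity lay below 0 for 15 of 18 tested genes, with a median of -0.11. Sox18, which drives the formation of vessels, stood at 3.09 and 4.43 CPM in sham, 2.48 and 2.17 CPM in CPIP+Veh, then 3.17 and 3.76 CPM in CPIP+ETA (log2 fold change in CPIP+Veh -0.69, SE 0.254, edgeR adjusted p = 0.938). Epas1, a hypoxia-inducible factor abundant in endothelium, had -0.13 (SE 0.0545).

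In the remaining lists the junction and adhesion genes lay below 0 for 11 of 15, the activated endothelium genes for 8 of 11, the transport genes for 6 of 12, and the artery, vein and capillary genes for 15 of 21. The sialomucin Cd34 had a log2 fold change of -0.39 (SE 0.179) and the adhesion molecule Icam2 -0.34 (SE 0.170). Thbd and Procr, which turn thrombin towards activating protein C, had -0.36 (SE 0.180) and -0.44 (SE 0.245). Abcg2, an efflux pump, and Mfsd2a, a lipid transporter, had -0.22 (SE 0.114) and -0.18 (SE 0.107), and the water channel Aqp1 had -0.20 (SE 0.0720). Car4, a carbonic anhydrase of capillaries, had 2.63 (SE 1.46) from 3 and 4 counts in sham and 6 and 42 in CPIP+Veh, so its value rests on CPIP+Veh 2. None of these passed in edgeR.

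Markers of other cells of the vessel wall and its surroundings also differed between the libraries, and their part in the endothelial values was not tested. Smooth muscle markers were at 107% and 93.4% of the sham mean in sham, 51.7% and 64.4% in CPIP+Veh, then 62.5% and 81.4% in CPIP+ETA, with 4 of 5 lower at an unadjusted p under 0.05 in CPIP+Veh (2.59% of all genes). DESeq2 called 2 of them lower there, Acta2 (log2 fold change -0.98 in edgeR, DESeq2 adjusted p = 0.00180) and Myh11 (-0.65, 0.0254), while edgeR and limma-voom called 0. Pericyte markers stood at 95.5% and 85.0% in CPIP+Veh, then 80.7% and 91.0% in CPIP+ETA, with 4 of 6 below 0 in CPIP+Veh. Fibroblast markers stood at 78.8% and 94.0%, then 61.8% and 80.6%, with 5 of 5 below 0 in CPIP+Veh. In CPIP+ETA against Sham+Veh 5 of 5 fibroblast markers were lower without overlap (18.5% of all genes). At an unadjusted p under 0.05 there were 3 lower (3.73% of all genes). DESeq2 called Col1a2 lower there (adjusted p = 0.0444), while edgeR and limma-voom called 0. Markers of lymphatic endothelium, which shares genes with blood endothelium, were at 87.8% and 91.1%, then 90.8% and 92.8%. In CPIP+Veh 4 of 4 were lower without overlap (19.5% of all genes). The defining factor Prox1 was low everywhere, at 0 to 0.921 CPM. Among these markers Lyve1 had a log2 fold change of -0.61 (SE 0.166) in CPIP+Veh against Sham+Veh. In CPIP+ETA against CPIP+Veh Lyve1 had 0.97 (SE 0.164), where 2 of the 4 lay above 0 and 2 below. For these 4 markers edgeR, DESeq2 and limma-voom called 0 in both comparisons. Adipocyte markers summed to 6.23 and 2.35 CPM in sham, 0.203 and 0.353 in CPIP+Veh, then 0.554 and 2.01 in CPIP+ETA. In CPIP+Veh against Sham+Veh 2 of 2 tested were lower at an unadjusted p under 0.05 (2.59% of all genes). In CPIP+ETA against CPIP+Veh 2 of 2 were higher at that threshold (2.42%). For these markers edgeR, DESeq2 and limma-voom called 0 in both comparisons.

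Sensory neuron markers stayed between 98.1% and 110% of the sham mean in all libraries, macrophage markers between 97.8% and 111%, and satellite glia markers between 97.1% and 126%. In CPIP+Veh against sham 5 of 5 macrophage markers lay above 0 and 2 were higher without overlap (17.6% of all genes), with 0 at an unadjusted p under 0.05. Of the sensory neuron markers 3 of 5 lay above 0, and Tubb3 and Prph were higher at an unadjusted p under 0.05 (2.34% of all genes). DESeq2 called Prph (log2 fold change 0.18 in edgeR, DESeq2 adjusted p = 0.00512), and edgeR and limma-voom called 0. Schwann cell markers ranged from 71.9% in CPIP+ETA 1 to 109% in Sham+Veh 2. Platelet markers, which bear on Pecam1 and Vwf because platelets carry their products, summed to between 3.57 and 4.91 CPM, and the platelet genes Ppbp and Gp1bb were at 0 in 5 of the 6 libraries. Red blood cell markers, a sign of blood left in the tissue, summed to 94.2 and 86.0 CPM in sham. They summed to 28.1 and 117.1 CPM in CPIP+Veh, then 307.9 and 182.1 in CPIP+ETA. In CPIP+ETA 4 of 4 were higher without overlap than in CPIP+Veh (15.7% of all genes) and than in Sham+Veh (17.2%). For these 4 markers edgeR, DESeq2 and limma-voom called 0 in both comparisons. The part of red blood cell markers in the endothelial values was not tested.

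**Figure D5:**
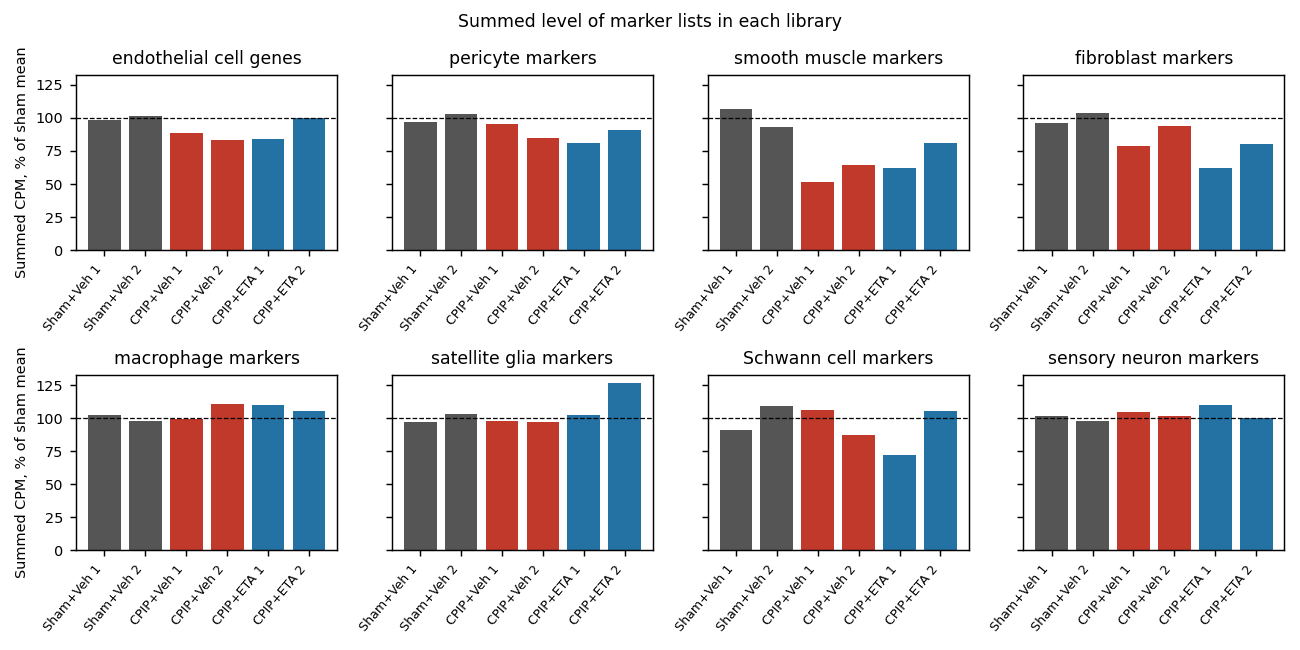
Summed CPM of the 10 endothelial cell genes and of 7 other marker lists in each library, as a percentage of the sham mean (y axis, from 0; dashed line at 100%). Smooth muscle markers are at 51.7% to 81.4% in the CPIP libraries, while sensory neuron markers stay near 100%.

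Likeness to the endothelial genes was measured as the root mean square difference between a gene's centred log2 CPM and the mean of the 10 over the 6 libraries. Among 11884 genes with a mean of at least 5 CPM, those closest included Hdhd2 (0.00636), Plpp3 (0.0294), Mxd1 (0.0313) and LOC103690149 (0.0349). Plpp3 is a lipid phosphatase made by endothelium and other cells, and none of these 4 is a standard endothelial marker. Of the 10 genes themselves Flt1 (0.0674) and Pecam1 (0.0686) were closest to their mean and Plvap (0.264) the furthest. Over all genes ranked, 81 were closer to that mean than Flt1 and 11072 closer than Plvap. Over 6 libraries with a small range such likeness is a description only.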

How the data were processed

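RNA from 6 libraries of rat DRG was sequenced on the BGISEQ-500, per the labels' protocols, and the build is Rnor_6.0, per the submitters' processing notes. The authors deposited expected counts (32.7% of values whole), with aligner, counting program, strand handling and annotation not given in the sources used here. Columns were assigned by name. Counts were rounded, and every blank value was read as 0, so a count of 0 may stand for a blank. In every library 2907 genes were blank.

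Tests used edgeR 4.0.16 in R 4.3.3 (quasi-likelihood F-test, filterByExpr with a minimum count of 10 and a total of 15, TMM scaling, group as the only term, all 6 libraries, two-sided, Benjamini-Hochberg over 15531 genes). Residual degrees of freedom were 3, prior ones 3.64, and the biological coefficient of variation 10.3%. SE is the log2 fold change over the square root of F. A prior count of 2 was used for log2 CPM in the likeness measure. Alternatives were RLE or no scaling, DESeq2 1.42.0, limma-voom (limma 3.58.1), no filter, a fit of the compared pair alone, a block for the number in the titles, and each library left out. The comparison averaging both CPIP groups was added later. The procedure was also run on counts simulated with the same spread for every gene, and the outcome is not reported here. No libraries were duplicates: replicates differed beyond sampling noise (chi-square per gene 5.91 to 9.83, near 1 for sampling noise).

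The members, lists and tests were chosen with earlier results of these data known. The genes named are every member, in each endothelial list the 2 with the lowest p in CPIP+Veh against sham, and the 5 most alike in level, of which 1 is not reported here. Other genes were chosen after their values were seen. Promoter sequences are from RefSeq (GRCr8), a build later than that of the data, so they were matched by gene identifier. Counting errors cover sampling of reads only. Figures were drawn with matplotlib 3.10.9.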

Additional observations from a re-analysis of the deposited data

How the results depend on the processing

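Of 390 values of single members under 13 alternative settings, 380 kept their direction, and 1, Eng in CPIP+ETA against Sham+Veh with DESeq2, passed the threshold. The 10 that turned did so with 1 library left out, which leaves a group of 1 whose spread is borrowed from the other groups. Without CPIP+Veh 1 they were Vwf in CPIP+Veh against Sham+Veh (-0.059, up to 0.15 with another library left out) and Tek in CPIP+ETA against CPIP+Veh (0.14, down to -0.15). Without CPIP+Veh 2 it was Tek in CPIP+Veh against Sham+Veh (0.050, down to -0.24). Without CPIP+ETA 1 they were Cdh5 (0.074, down to -0.28) and Tek (0.0066) against CPIP+Veh, and Pecam1 (0.055, down to -0.13) and Flt1 (0.030, down to -0.22) against Sham+Veh. Without CPIP+ETA 2 they were Tie1 (-0.013, up to 0.20) and Vwf (-0.11, up to 0.38) against CPIP+Veh, and Vwf (-0.060, up to 0.43) against Sham+Veh. Genes called over the whole table were 3, 0 and 3 for CPIP+Veh against Sham+Veh, CPIP+ETA against CPIP+Veh and CPIP+ETA against Sham+Veh, and 49, 21 and 50 with DESeq2, with 1 member among the last. For the last comparison limma-voom called 1 and the fit of only the 2 groups 1. With 1 library left out, 1 to 3 genes were called in CPIP+Veh against Sham+Veh and 1 to 2 in CPIP+ETA against Sham+Veh. The count of members lower at an unadjusted p under 0.05 in CPIP+Veh then ran from 1 to 5, and the median for etanercept from -0.021 to 0.27. The causes were not tested. Libraries with the same number in their titles shared little deviation from their group means (correlations over genes 0.03, -0.11 and 0.05). With 2 libraries per group this cannot show whether they were handled together. With the replicate block the counts of genes called remained 3, 0 and 3, and the medians of the members were -0.26, 0.12 and -0.10. With 2 libraries per group, real differences of the sizes printed could go uncalled. The 95% intervals are for single genes, without adjustment over 15531 genes, and do not mark the smallest detectable difference.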

Other observations

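Further endothelial genes, chosen after their values were seen, differed most in the etanercept libraries. Thbd, the thrombin receptor of endothelium, stood at 39.9 and 50.2 CPM in Sham+Veh, 33.0 and 37.4 in CPIP+Veh, then 21.2 and 30.1 in CPIP+ETA (CPIP+ETA against Sham+Veh, log2 fold change -0.82, SE 0.184, edgeR adjusted p = 0.531, DESeq2 adjusted p = 0.0356). Cav1, the coat protein of caveolae, which other cells of the ganglion also make, stood at 152.9 and 162.7 CPM in Sham+Veh, 146.6 and 134.1 in CPIP+Veh, then 84.5 and 120.0 in CPIP+ETA (-0.63, SE 0.152, edgeR adjusted p = 0.578, DESeq2 adjusted p = 0.0272). Neither passed in edgeR. Angpt2, the ligand that opposes Angpt1 at Tek, stood at 9.31 and 8.59 CPM in Sham+Veh, 7.54 and 11.7 in CPIP+Veh, then 11.7 and 13.8 in CPIP+ETA.

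Klf2 and Klf4, transcription factors induced by blood flow, and Nos3, the endothelial nitric oxide synthase, were higher in both CPIP+ETA libraries than in both CPIP+Veh libraries. Over all genes 15.7% were higher without overlap and 16.9% lower. Of the 102 tested genes of the endothelial lists 20 were higher and 14 lower, Thbd (-0.46) among the lower. Klf2 stood at 3.63 and 5.66 CPM against 2.53 and 3.28, Klf4 at 6.75 and 9.53 against 4.61 and 5.65, and Nos3 at 6.20 and 8.17 against 5.16 and 5.85. Klf2, Klf4 and Nos3 did not pass in edgeR (adjusted p = 0.938 for each). Against Sham+Veh the log2 fold changes in CPIP+ETA were 0.58 for Klf2, 0.31 for Nos3 and 0.11 for Klf4, which overlapped.

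Sele, the selectin of inflamed endothelium, was counted 34 times in CPIP+ETA 2 and 4 to 9 times in each other library. Csf3, a cytokine made by activated endothelium and by other cells, was counted 7 times in CPIP+ETA 2 and was at 0 in the others. Both were under the filter and were not tested.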
